A study of Mus musculus with 15 samples.

Results

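The genes described here encode the proteasome, its activators and the chaperones that build it. They were taken from the deposited table by symbol: Psma, Psmb, Psmc, Psmd or Psme followed by a number, leaving out Psmb8 and Psmb9, with a normalized count of 10 or more in at least 3 of 15 libraries. Of 45 matching symbols, Psmb8 and Psmb9 were set aside and Psmb11, the thymic beta subunit gene (1.02 to 10.4 normalized counts), missed the floor. This left 42 genes of 17030 tested. Choosing genes by symbol also took in 1 that is no proteasome subunit, Psmc3ip, whose product assists DNA strand exchange in homologous recombination. It is counted with the 42 and described separately.

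Cortex and striatum RNA came from C57Bl/6 males, 5 months old. They were wild type (WT) or SLC1a4 -/- (KO), which lack ASCT1, a transporter of neutral amino acids. There were 4 libraries of WT cortex (replicates 5 to 8), 4 of KO cortex (1 to 4), 4 of WT striatum (5 to 8) and 3 of KO striatum (2 to 4). The labels do not name the deleted part of Slc1a4, and they do not say that replicates are separate animals. The p-values therefore measure only the spread between these samples, which may be technical. A normalized count is the number of reads of a gene divided by 1 factor per library. All fold changes are on the scale of log2(normalized count + 1), from a fit with limma across all genes. This fit did not pair cortex and striatum libraries of the same replicate number. A gene was called when its Benjamini-Hochberg adjusted p was below 0.05.

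Depth was 22990233 to 25697792 reads per striatum library and 26791109 to 30276815 per cortex library. Slc1a4 stood at 1494 to 1797 normalized counts in WT cortex and 249 to 308 in KO cortex, and at 1237 to 1726 in WT striatum and 158 to 344 in KO striatum, so every library matched its genotype label. All 12 markers of striatal projection neurons were called higher in striatum in both genotypes, and 9 of 10 markers of cortical excitatory neurons were called lower. Of other lists, choroid plexus markers were called higher in WT striatum for 6 of 10 genes, ependymal markers for 7 of 7, astrocyte markers for 3 of 8 (1 lower) and endothelial markers for 1 of 9. Striatum libraries also differed from each other. Summed markers of neighbouring thalamic, septal and pallidal neurons were highest in KO replicate 4 (42337) and WT replicate 8 (27841) and lay between 10874 and 15221 in the other 5 libraries. Summed choroid plexus markers were highest in WT replicate 5 (149296) and KO replicate 4 (92368), against 1997 to 7089 in the others. Proteasome results are given below with and without these pairs of libraries where they differ.

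The proteasome degrades proteins that carry ubiquitin chains. Its core particle is a barrel of alpha rings outside and beta rings inside, and the beta rings hold the proteolytic sites. A regulatory particle with a ring of ATPases and a set of non-ATPase subunits binds the ubiquitin chain, removes it and feeds the unfolded protein into the barrel. Other caps (PA28 and PA200) can take the place of the regulatory particle. When proteasome activity falls in mammalian cells, the transcription factor NRF1 (gene Nfe2l1) is known to raise the subunit genes together through antioxidant response elements in their promoters. In neurons the proteasome acts in synaptic protein turnover as well as in housekeeping.

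Promoter windows show what the letters upstream of these genes share and where they differ. Windows of 250 bases before to 50 bases after a start (RefSeq, GRCm38.p6) were at hand for 35 of the 42 genes. The core of the antioxidant response element was searched as TGACNNNGC on both strands. It was found in 6 of these 35 genes (17.1%) and in 14% of all 27025 genes with such windows. The genes were Psmb5, Psmb6, Psmc6, Psmd12, Psmd9 and Psme4. The share in the family was close to that of all genes, so the element does not mark the family here. The 4 windows that lie upstream of both the RefSeq and the GENCODE start are shown because NRF1 is known to act through this element. Each runs 5′ to 3′ on the strand of the gene, and capitals mark the match.

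Psmb5 (chr14:54618023-54618062, minus strand): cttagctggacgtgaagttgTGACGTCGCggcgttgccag
Psmb6 (chr11:70525328-70525356, plus strand): cagaggcggactaaagagagTGACGGAGC
Psmc6 (chr14:45329577-45329625, plus strand): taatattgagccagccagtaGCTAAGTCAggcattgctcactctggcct
Psmd12 (chr11:107479278-107479309, plus strand): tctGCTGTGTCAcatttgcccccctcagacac

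The catalytic genes Psmb5 and Psmb6 held the match in the orientation of the gene, and Psmc6 and Psmd12 held it on the opposite strand. A CCAAT box, searched as CCAAT on both strands, was found in 13 of the 35 genes (37.1%) and in 41.1% of all genes. An ETS-type motif, searched as CCGGAAG on both strands after the windows had been looked at, was found in 13 of the 35 (37.1%) and in 9.93% of all genes. Both of the latter motifs were present in 6 genes, counted over all windows of a gene, and no match of 1 motif overlapped a match of another. In Psma6 the 2 motifs lay in windows of different starts. Because the ETS-type motif was chosen after the sequences were seen, its share is a description only. A match of letters is not a binding site, and no binding was measured. The following windows show that motif in genes of the ATPase ring, the non-ATPase group and the activators.

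Psmc2 (chr5:21785171-21785217, plus strand): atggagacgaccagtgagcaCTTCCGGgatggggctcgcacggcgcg
Psmd2 (chr16:20651606-20651651, plus strand): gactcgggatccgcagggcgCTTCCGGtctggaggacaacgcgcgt
Psmd4 (chr3:95042713-95042759, minus strand): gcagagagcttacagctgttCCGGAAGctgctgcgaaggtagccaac
Psme3 (chr11:101316086-101316132, plus strand): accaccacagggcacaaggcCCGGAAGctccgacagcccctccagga

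In brain tissue nearly the whole family was present at substantial levels. Mean normalized counts over all 15 libraries lay between 300 and 6000 for 39 of the 42 genes. The exceptions were Psma8, the alpha subunit gene of the testis, at 10.5, Psme2b, a near copy of Psme2, at 8.99, and Psmc3ip at 49.2. Psma8 reached 10 normalized counts in 7 libraries and Psme2b in 5, so neither passed the floor in most samples. Levels of different genes are compared only per kb of annotated exon (GENCODE M21). Such values depend on how much of the annotated exon is transcribed in brain.

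On that scale the beta ring genes were the most even group with more than 3 members. Their means per kb ran from 409.9 for Psmb3 to 1103 for Psmb4, a ratio of 2.69, with a median of 778. The alpha ring genes had a median of 557, led by Psma6 at 1362. Among the ATPases the range was wider, from 417 for Psmc2 to 2358 for Psmc5, a ratio of 5.66. Non-ATPase subunits ran from 256 for Psmd11 to 1256 for Psmd2, the scaffold subunit that docks ubiquitin receptors. The 3 assembly chaperones of the regulatory particle were lower than every core and regulatory particle subunit but Psma8, at 244 for Psmd10 (gankyrin), 136 for Psmd5 and 68.9 for Psmd9. Among activators Psme3 (PA28 gamma, the nuclear form) stood at 850.5, well above Psme1 at 258, Psme2 at 242 and Psme4 at 215.

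**Figure D1:**
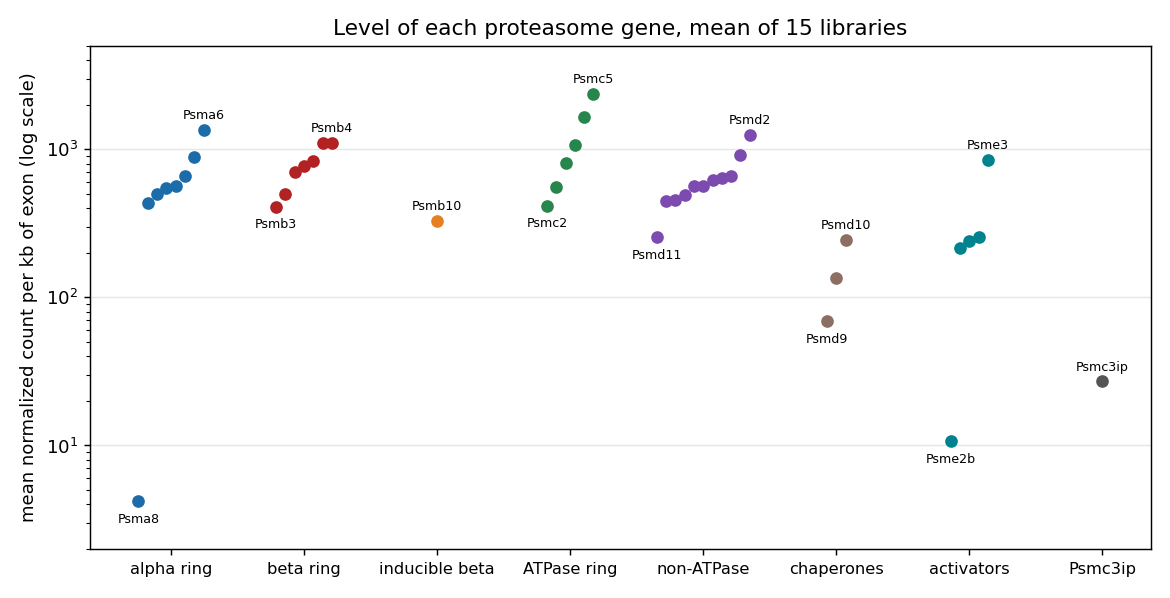
Mean normalized count per kb of exon over the 15 libraries for each of the 42 genes, on a log axis, grouped by role, with the highest and lowest gene of each role named. Core and regulatory particle subunits sit between 256 (Psmd11) and 2358 (Psmc5) except Psma8 (4.23), while the chaperones reach 244 (Psmd10) and Psme3 (850.5) stands above the other activators.

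Replicates of this family lay close together. The residual SD of a gene within groups had a median of 0.086 on the log2 scale over the 42 genes and 0.18 over all genes tested. Over genes with a mean between 300 and 6000 it was 0.084 for the family and 0.12 for all. Psmd14, the deubiquitinase of the regulatory particle lid, and Psmd1, a scaffold subunit, varied least (0.036 and 0.038). Among the 39 well-measured genes Psmb5, the chymotrypsin-like site, varied most (0.15), followed by Psmd10 (0.14) and Psmb10 (0.13). The spread differed between groups, with a median SD of 0.060 in WT cortex, 0.060 in KO cortex, 0.084 in WT striatum and 0.12 in KO striatum.

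The comparison of striatum with cortex in WT mice asked how the proteasome genes differ between the tissues. A total of 13 of 42 genes was called, 8 higher and 5 lower in striatum, where 50.5% of all genes tested were called (24.9% higher and 25.7% lower). At an unadjusted p below 0.05 there were 17 (56.8% of all genes), and 17 of the 42 values were below 0 (49.5% of all genes). Groups did not overlap for 16 of the 42 (10 higher, 6 lower), against 47.3% of all genes (23% higher, 24.3% lower). The differences were small: the median size was 0.126 on the log2 scale for the family, 0.323 for all genes tested and 0.250 for all genes with a mean between 300 and 6000. The 95% interval of the difference lay within 1.5-fold for 37 of 42 genes, and for 7809 of 17030 genes tested. With a mean between 300 and 6000 it did so for 37 of 39 genes of the family and for 5926 of 8969 genes in all. The median signed change was 0.065, or 0.034 without WT striatum replicate 8 and 0.104 without WT striatum replicate 7. In bulk tissue a change in the number of cells of a type and a change of RNA per cell cannot be told apart.

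Psmb10 differed most between the tissues. It encodes the inducible beta subunit (MECL-1) that replaces Psmb7 in immunoproteasomes, and lies at chr8:105935735-105938444 on the minus strand (ENSMUSG00000031897). WT cortex libraries held 778, 725, 795 and 673 normalized counts, and KO cortex libraries 674, 697, 695 and 646. WT striatum libraries held 328, 363, 362 and 430, and KO striatum libraries 392, 358 and 449. Every striatum library thus lay below every cortex library. The highest values in striatum, WT replicate 8 and KO replicate 4, were those of the libraries highest in neighbour markers. Of the striatum libraries these were also lowest in summed striatal neuron markers (95331 and 48114). They were highest in summed oligodendrocyte markers too (302963 and 308860). Which of these goes with Psmb10 was not tested. The striatal level was 49.9% of the cortical one in WT (log2 fold change -1.0, SE 0.09, limma adjusted p = 6.3e-07). In KO it was 58.9% (log2 fold change -0.77, SE 0.10, limma adjusted p = 3.5e-05). This call held in all 15 fits that left out 1 library. In some of these the library was of a group not compared, which cannot change the fold change.

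The 150 bases upstream of the GENCODE start of Psmb10 are shown as the promoter of the gene with the largest difference. None of the searched motifs was found in this window, which says only that those letters are not there.

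Psmb10 (chr8:105938445-105938594, minus strand): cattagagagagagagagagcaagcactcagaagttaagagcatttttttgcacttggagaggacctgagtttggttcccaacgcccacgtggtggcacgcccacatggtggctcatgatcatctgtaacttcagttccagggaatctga

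The other immunoproteasome genes were not called between tissues. Psmb8, the inducible partner of Psmb5, stood at 78 ± 18 normalized counts in WT cortex and 74 ± 21 in WT striatum, and Psmb9, the partner of Psmb6, at 29 ± 2 and 34 ± 12 (SD, n = 4 each). Their limma adjusted p was 0.77 and 0.65, and the peptide transporter genes Tap1 and Tap2 were not called either (0.87 and 0.42). Per kb, Psmb10 stood at 61.5 ± 4.2% of Psmb7 in WT cortex (SD, n = 4) and 60.3 ± 2.2% in KO cortex (SD, n = 4). In striatum it stood at 29.2 ± 3.3% in WT (SD, n = 4) and 33.8 ± 1.4% in KO (SD, n = 3). A two-sided exact permutation test of the WT tissue difference gave p = 0.0286, the smallest that 4 against 4 allows, or 0.274 when adjusted over the 24 ratio tests made. By the same ratio Psmb8 was 2.03 ± 0.38% of Psmb5 and Psmb9 1.07 ± 0.03% of Psmb6 in WT cortex. Markers of microglia, cells that express immunoproteasome genes, were called higher in WT striatum for 7 of 9, opposite in direction to Psmb10. Their summed level ran from 10839 to 13484 in WT cortex and from 14431 to 16424 in WT striatum. The part of cell makeup in the Psmb10 difference was not tested.

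**Figure D2:**
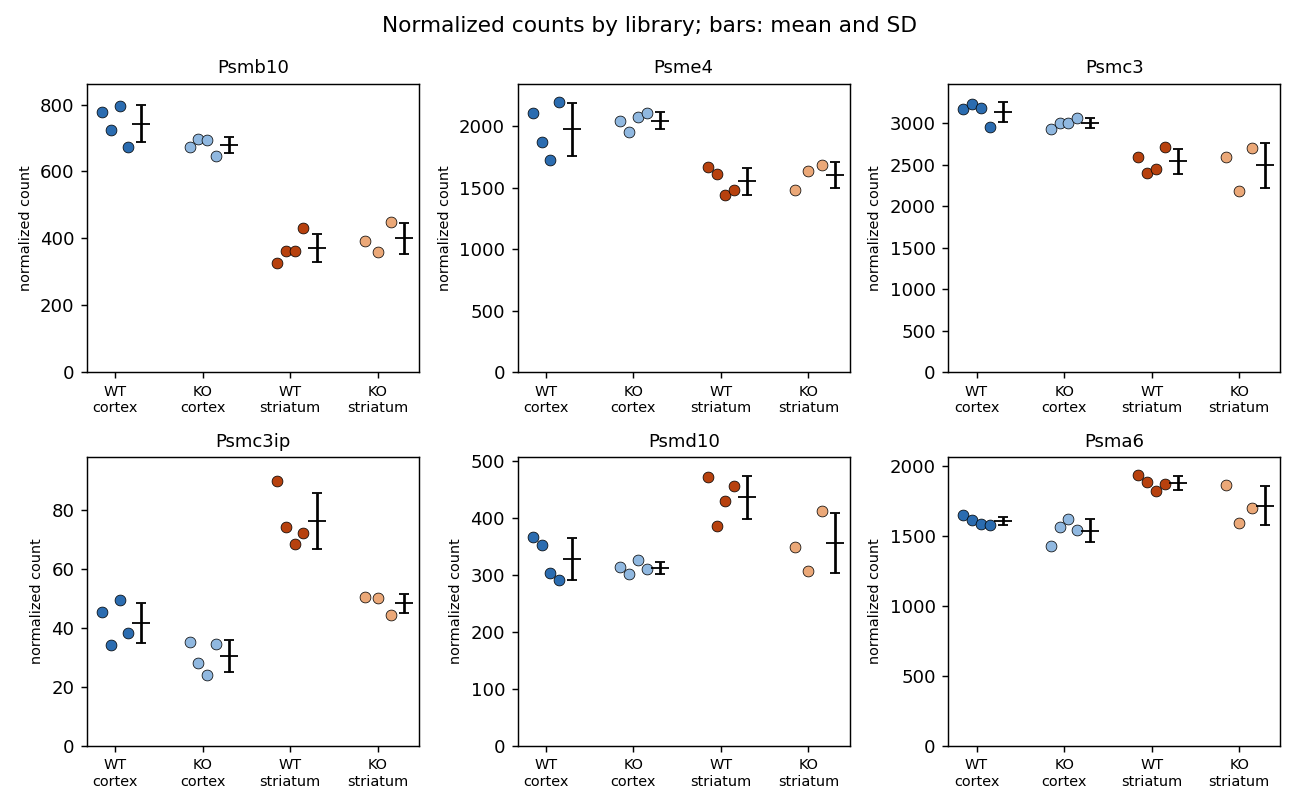
Normalized counts of 6 genes in each library (points), with the group mean and SD beside them, for the 4 groups. Psmb10, Psme4 and Psmc3 are lower in every striatum library than in every cortex library, Psmc3ip is higher in WT striatum (68.4 to 89.9) than in all other groups, and Psmd10 and Psma6 are higher in WT striatum than in WT cortex.

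Among the genes of the constitutive beta ring, 2 of 7 were called higher in WT striatum and 0 lower, against 24.9% and 25.7% of all genes. Psmb1, a structural beta subunit, stood at 2200, 2259, 2223 and 2143 normalized counts in WT cortex and 2675, 2569, 2404 and 2675 in WT striatum, with no overlap (log2 fold change 0.23, SE 0.06, limma adjusted p = 0.0046). Psmb6, the caspase-like site, rose from 1393 ± 66 to 1647 ± 80 (SD, n = 4 each, log2 fold change 0.24, limma adjusted p = 0.0058). The other active sites were not called: Psmb5 stood at 1011 ± 79 and 1025 ± 103, and Psmb7, the trypsin-like site, at 2423 ± 53 and 2553 ± 193 (limma adjusted p = 0.89 and 0.44). The 95% interval of the Psmb5 difference ran from -0.19 to 0.23. Psmb7 shares 405 exonic bases with Nek6 on the opposite strand, and the strand setting of the counting is not given in the sources used here, so its value is uncertain. In KO mice 0 of the 7 beta ring genes were called between tissues, where 37.9% of all genes were.

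Of the alpha ring genes 1 of 8 was called in WT, against 50.5% of all genes. Psma6 stood at 1646, 1611, 1586 and 1577 normalized counts in WT cortex and at 1936, 1884, 1817 and 1867 in WT striatum, again with no overlap (log2 fold change 0.22, SE 0.06, limma adjusted p = 0.0037). In KO its values overlapped between the tissues and it narrowly missed the call (log2 fold change 0.16, limma adjusted p = 0.051). With length and GC trends removed, Psma6 was not called in WT either (log2 fold change 0.11, limma adjusted p = 0.11). The median over the alpha ring was 0.099 in WT, and Psma5 had the lowest value (1269 ± 69 in WT cortex and 1140 ± 68 in WT striatum, SD, n = 4 each).

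In the ATPase ring 2 of 6 genes were called in WT, both lower in striatum, where 25.7% of all genes were called lower. Psmc3 encodes the subunit Rpt5, whose tail helps to open the gate of the core. It stood at 3165, 3227, 3187 and 2951 normalized counts in WT cortex, 2928, 3002, 3007 and 3067 in KO cortex, 2592, 2394, 2449 and 2716 in WT striatum and 2590.5, 2187 and 2695 in KO striatum. Every striatum library lay below every cortex library. The log2 fold change was -0.30 in WT (SE 0.06, limma adjusted p = 0.0012) and -0.27 in KO (SE 0.07, limma adjusted p = 0.0062). Psmc3 shares 215 exonic bases, 8.25% of its exon, with Slc39a13 on the opposite strand. Psmc4 fell from 1892 ± 61 to 1680 ± 94 in WT (SD, n = 4 each, limma adjusted p = 0.023). The median over the ring was -0.017, since Psmc1 and Psmc2 had values above 0 (0.078 and 0.11).

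Non-ATPase subunits of the regulatory particle were called for 4 of 11 genes in WT, 3 higher and 1 lower, against 50.5% of all genes. Psmd6, a lid subunit, stood at 1276, 1316, 1332 and 1292 normalized counts in WT cortex and 1499, 1483, 1473 and 1570 in WT striatum (log2 fold change 0.21, SE 0.05, limma adjusted p = 0.0046). Psmd1 rose from 3161 ± 79 to 3496 ± 125 and Psmd14 from 1715 ± 33 to 1895 ± 37, while Psmd3, another lid subunit, fell from 3038 ± 136 to 2671 ± 109 (SD, n = 4 each). Without a length and GC correction, 3 of the 11 were called higher and 1 lower, against 24.9% and 25.7% of all genes. With length and GC trends removed Psmd6 was no longer called (log2 fold change 0.085, limma adjusted p = 0.22). Fewer genes of the family were then called higher in WT striatum, and the corrected values of Psmd1 and Psmd14 are not given here. Among the WT calls Psmc4, Psmd1, Psmd3 and Psmd14 fall outside the rule that chose genes to name for this comparison and were named after their values were seen, as was Psma5.

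Of the assembly chaperones, Psmd10 stood at 366, 354, 304 and 291 normalized counts in WT cortex and 472, 387, 431 and 457 in WT striatum, with no overlap (log2 fold change 0.41, SE 0.10, limma adjusted p = 0.0039). With length and GC trends removed the log2 fold change was 0.25 and the call held. In KO it was not called (313 ± 10 in cortex, n = 4, and 357 ± 53 in striatum, n = 3, SD). Psmd5, which holds the ATPase base before assembly, was called in KO. It rose from 919 ± 44 in KO cortex to 1093 ± 33 in KO striatum (SD, log2 fold change 0.25, SE 0.07, limma adjusted p = 0.0089). In WT its log2 fold change was 0.15 (limma adjusted p = 0.053), and the difference between genotypes was not called (limma adjusted p = 0.97).

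Activators differed among themselves. Psme4 encodes PA200, a cap without ATPase activity that binds the core directly, and lies at chr11:30771726-30880361 on the plus strand. It stood at 2109, 1867, 1725 and 2196 normalized counts in WT cortex, 2041, 1951, 2074 and 2110 in KO cortex, 1668, 1610.5, 1441 and 1480 in WT striatum and 1480, 1633 and 1686 in KO striatum. All striatum values lay below all cortex values. The log2 fold change was -0.34 in WT (SE 0.08, limma adjusted p = 0.0017) and -0.36 in KO (SE 0.08, limma adjusted p = 0.0037). Psme1 and Psme2, which form PA28 alpha-beta, had values of 0.14 and 0.11 in WT and were not called (limma adjusted p = 0.19 and 0.32). Psme3 stood at 2567 ± 45 in WT cortex and 2394 ± 36 in WT striatum (SD, n = 4 each, log2 fold change -0.10, limma adjusted p = 0.079).

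The 150 bases upstream of the GENCODE start of Psme4 are printed for comparison with Psmb10, as the activator gene that was lower in striatum in both genotypes. No whole match of a searched motif lies in these bases. Unlike Psmb10, Psme4 was counted with an ETS-type and an antioxidant response element match. Those matches cross or lie beyond the GENCODE start and are not printed.

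Psme4 (chr11:30771576-30771725, plus strand): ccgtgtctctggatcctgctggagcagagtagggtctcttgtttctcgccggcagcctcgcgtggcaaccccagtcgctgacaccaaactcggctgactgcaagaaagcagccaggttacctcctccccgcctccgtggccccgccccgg

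Psmc3ip rose in striatum in both genotypes. It stood at 45.2, 34.2, 49.4 and 38.1 normalized counts in WT cortex and 89.9, 74.2, 68.4 and 72.1 in WT striatum (log2 fold change 0.86, SE 0.17, limma adjusted p = 0.00068). KO cortex libraries held 35.2, 28.1, 24.2 and 34.5, and KO striatum libraries 50.4, 50.1 and 44.5 (log2 fold change 0.66, SE 0.18, limma adjusted p = 0.010). The gene shares 385 exonic bases, 21.2% of its exon, with the more abundant Mlx on the opposite strand. Without the strand, reads within these shared bases cannot be assigned to 1 of the genes.

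The same comparison in KO mice called 7 of 42 genes, 3 higher and 4 lower in striatum, against 37.9% of all genes (18.4% higher and 19.5% lower). At an unadjusted p below 0.05 there were 11 (46.8% of all genes), and 16 of the 42 values were below 0 (49.7% of all genes). Groups did not overlap for the same 7 genes, 3 higher and 4 lower, against 41.5% of all genes (20.1% higher, 21.4% lower). Psmb10, Psme4, Psmc3 and Psmd3 were lower, and Psmd5, Psmc3ip and Psmd1 were higher. The count was 11 (8 higher, 3 lower) without KO striatum replicate 3, a fit whose share of all genes called is not given here. Of the called genes 6 were called in WT too, which is 46.2% of the WT calls and 85.7% of the KO calls, and 28 were called in neither. Over all genes tested the shared calls were 66.9% of the WT calls and 89.3% of the KO calls. The median size of a difference was 0.091, against 0.271 for all genes tested. Psmd3 was the weakest of the 7 (2899 ± 27 in cortex, n = 4, and 2599 ± 214 in striatum, n = 3, SD, limma adjusted p = 0.043), and its call was kept in 6 of the 15 fits that left out 1 library. Psmd1 kept its call in 12 of them (log2 fold change 0.14, limma adjusted p = 0.023).

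**Figure D3:**
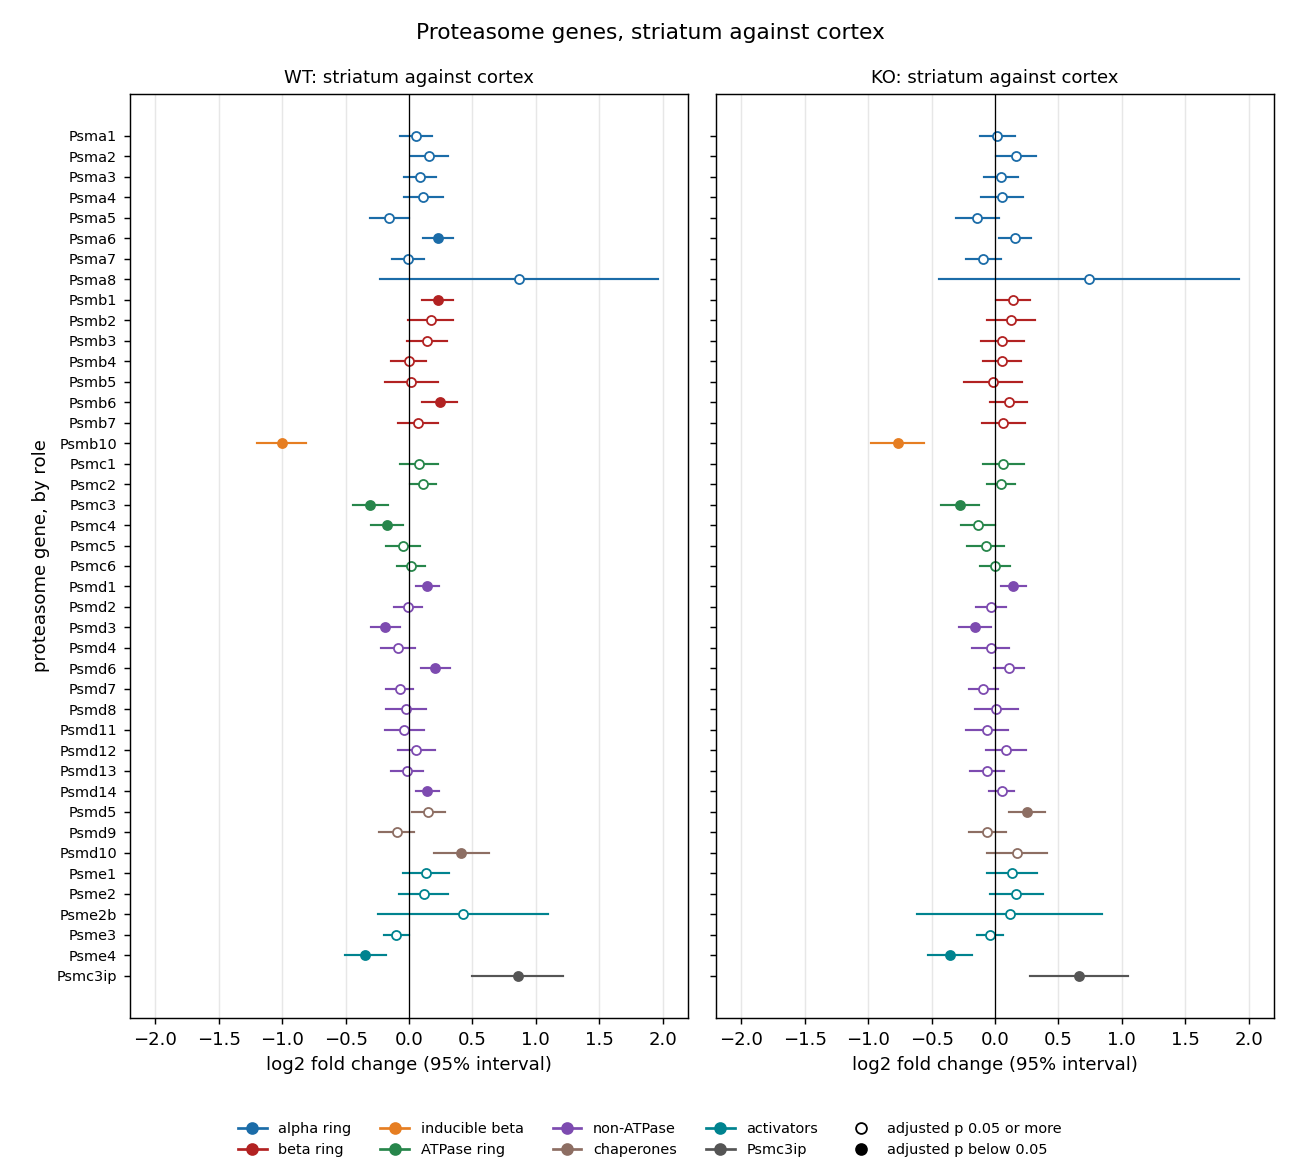
Log2 fold change of striatum against cortex with its 95% interval for each of the 42 genes, in WT (left) and KO (right), coloured by role, with filled points for an adjusted p below 0.05. Most points lie close to 0, Psmb10 stands apart at -1.0 in WT and -0.77 in KO, and the poorly measured Psma8 and Psme2b have the widest intervals.

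The direction of the family's median between tissues changed with a correction for transcript length and GC content. The longest transcript of a family member had a median of 1851 bases, against 3238 over all genes tested. With length and GC trends removed from each comparison, the WT median went from 0.065 to -0.012, and the calls split into 4 higher and 7 lower in place of 8 and 5. In KO the median went from 0.052 to -0.038 and the calls to 2 higher and 7 lower in place of 3 and 4. The shares of all genes called after this correction are not given here, so these counts are not set against other genes. The lower values of Psmb10, Psmc3 and Psme4 were called under every alternative in both genotypes. Oligodendrocyte markers were called higher in striatum for 8 of 8 genes in both genotypes, with sums of 56984 to 121279 in WT cortex and 218312 to 302963 in WT striatum. Their part in the proteasome differences was not tested.

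Genes that work beside the proteasome gave a mixed picture between tissues. Of 5 regulators of proteasome gene expression, 4 were called in WT, where 50.5% of all genes were. Nfe2l2 (NRF2) rose from 447 ± 51 to 672 ± 133 normalized counts and Ngly1, the glycanase that processes NRF1, from 652 ± 35 to 790 ± 52 (SD, n = 4 each, log2 fold changes 0.57 and 0.28). Ddi2, the protease that activates NRF1, fell from 1851 ± 164 to 1441 ± 154, and Nfe2l1 itself from 9529 ± 106 to 8716 ± 139 (log2 fold changes -0.36 and -0.13). In KO Ddi2 and Nfe2l1 were again called lower (-0.35 and -0.15) and 0 of the 5 were called higher.

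Of 12 tested receptors, deubiquitinases and adaptors that bind the proteasome, 4 rose and 3 fell in WT striatum, against 24.9% and 25.7% of all genes. Shfm1, the small lid subunit also known as Sem1 whose symbol the rule does not take, rose from 656 ± 55 to 902 ± 93 (SD, n = 4 each, log2 fold change 0.46, limma adjusted p = 0.0002). Ubqln2, a shuttle for ubiquitinated proteins, rose from 5818 ± 170 to 7752 ± 515 (log2 fold change 0.41), and Rad23b, another shuttle, fell from 5126 ± 106 to 4300 ± 111 (log2 fold change -0.25). In KO 3 of the 12 rose and 2 fell, against 18.4% and 19.5% of all genes. Among 7 assembly factors and inhibitors the inhibitor Psmf1 was the 1 gene called in WT, at 840 ± 37 in cortex and 694 ± 38 in striatum (SD, n = 4 each, log2 fold change -0.28). In KO Psmf1 fell too (-0.21), Akirin2, which carries proteasomes into the nucleus, fell (-0.29), and the chaperone Psmg1 rose (0.37). Among ubiquitin and ubiquitin-activating enzyme genes, Ubb rose in WT striatum (log2 fold change 0.13), as did Uba6, which encodes an activating enzyme (0.28). Neither was called in KO (limma adjusted p = 0.57 and 0.073).

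The comparisons of KO with WT asked whether the loss of ASCT1 changes these genes. In cortex 0 of 42 genes were called, where 0.00587% of all genes were. In striatum 0 of 42 were called as well, where 0.0763% of all genes were (0.0705% higher and 0.00587% lower). With edgeR and with DESeq2 the counts were also 0 in both tissues. At an unadjusted limma p below 0.05 there was 1 gene in cortex (Psmc3ip), where 2.51% of all genes were, and there were 6 in striatum, where 15.3% of all genes were. The 95% interval of the KO effect lay within 1.5-fold for 39 of 42 genes in each tissue. All 3 exceptions were the low genes Psma8, Psme2b and Psmc3ip. Over all genes tested the share was 70.8% in cortex and 61.9% in striatum. Over all genes with a mean between 300 and 6000 it was 94.9% in cortex and 86.7% in striatum.

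Values leaned to the low side in KO. In cortex 36 of 42 log2 fold changes were below 0, against 49.5% of all genes, with a median of -0.059 (0.0012 over all genes). In striatum 34 of 42 were below 0, against 48.3% of all genes, with a median of -0.076 (0.0079 over all genes). Without KO striatum replicate 3 the striatal values were 24 of 42 and a median of -0.013. Genes of 1 complex measured in the same libraries are not independent, so these counts are descriptions with no test. Groups did not overlap for 3 genes in cortex (Psma3, Psmd3 and Psmd8), all lower in KO, against 4.02% of all genes (1.73% higher, 2.28% lower). They did not overlap for 3 genes in striatum (Psmb6, Psmd14 and Psmc3ip), all lower, against 8.07% of all genes (3.96% higher, 4.12% lower). The WT and KO striatum libraries differed in cell markers too. Striatal neuron markers were below 0 for 12 of 12 genes in KO striatum (median -0.83, 0 called) and oligodendrocyte markers for 8 of 8 (median -0.28, 0 called). Microglia markers were below 0 for 8 of 9 (median -0.21, 0 called, 5 at an unadjusted limma p below 0.05), while cortical neuron markers had a median of 1.28 with 1 of 10 called. In KO cortex striatal neuron markers were below 0 for 12 of 12 genes (median -0.42), and choroid plexus markers were above 0 for 10 of 10 (median 1.41), ependymal markers for 7 of 7 (median 0.36) and endothelial markers for 9 of 9 (median 0.099), with 0 called in each list. The part of these differences in the proteasome values was not tested.

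By role, values of all 7 beta ring genes were below 0 in both tissues, with medians of -0.071 in cortex and -0.107 in striatum. The same held for all 6 ATPase genes (medians -0.062 and -0.064) and for 7 of 8 alpha ring genes in each tissue (medians -0.059 and -0.086). Non-ATPase subunits had 9 of 11 values below 0 in each tissue (medians -0.035 and -0.042). Activators were divided, with 3 of 5 below 0 in each tissue, and Psme4 stood at 104% of its WT mean in cortex and 103% in striatum. Of the chaperones 2 of 3 were below 0 in cortex and 1 of 3 in striatum. The striatal medians given here rested largely on KO striatum replicate 3, while the count of alpha ring genes below 0 did not. Without that library 4 of 7 beta ring genes were below 0 (median -0.0061) and 2 of 6 ATPase genes (median 0.0033). The same held for 7 of 8 alpha ring genes (median -0.018) and 6 of 11 non-ATPase genes (median -0.015).

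The genes with the smallest p did not pass the test and are given as values. In cortex Psmc3ip had a log2 fold change of -0.44 (SE 0.17), Psmd8, a lid subunit, of -0.14 and Psmd7, the partner of the deubiquitinase in the lid, of -0.088 (limma adjusted p = 1 each, rounded). Psmd8 stood at 1843, 1733, 1770 and 1846 normalized counts in WT cortex and 1709, 1552, 1693 and 1588 in KO cortex, with no overlap. Psmd7 stood at 2183 ± 51 in WT and 2054 ± 53 in KO (SD, n = 4 each), and 1 KO library lay above the lowest WT library.

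In striatum Psmc3ip had a log2 fold change of -0.64 (SE 0.18, limma adjusted p = 0.18), and every KO library (44.5 to 50.4) lay below every WT library (68.4 to 89.9). Psmd14 stood at 1910, 1840, 1917 and 1915 normalized counts in WT and 1767, 1723 and 1661 in KO, also with no overlap (log2 fold change -0.14, SE 0.05, limma adjusted p = 0.21). Psmb1 stood at 2675, 2569, 2404 and 2675 in WT and 2411, 2057 and 2374 in KO, where KO replicate 2 lay just above the lowest WT library (log2 fold change -0.18, limma adjusted p = 0.22). These comparisons share the WT striatum libraries with the WT comparison of tissues, in which Psmc3ip, Psmd14 and Psmb1 were higher in striatum. The catalytic genes Psmb5, Psmb6 and Psmb7 stood at 93.4%, 87.9% and 93.1% of their WT means in striatum and 95.03%, 96.1% and 93.3% in cortex, with no call. Without KO striatum replicate 3 the striatal percentages were 102%, 92.9% and 99.4%, and the log2 fold change of Psmb1 was -0.11.

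**Figure D4:**
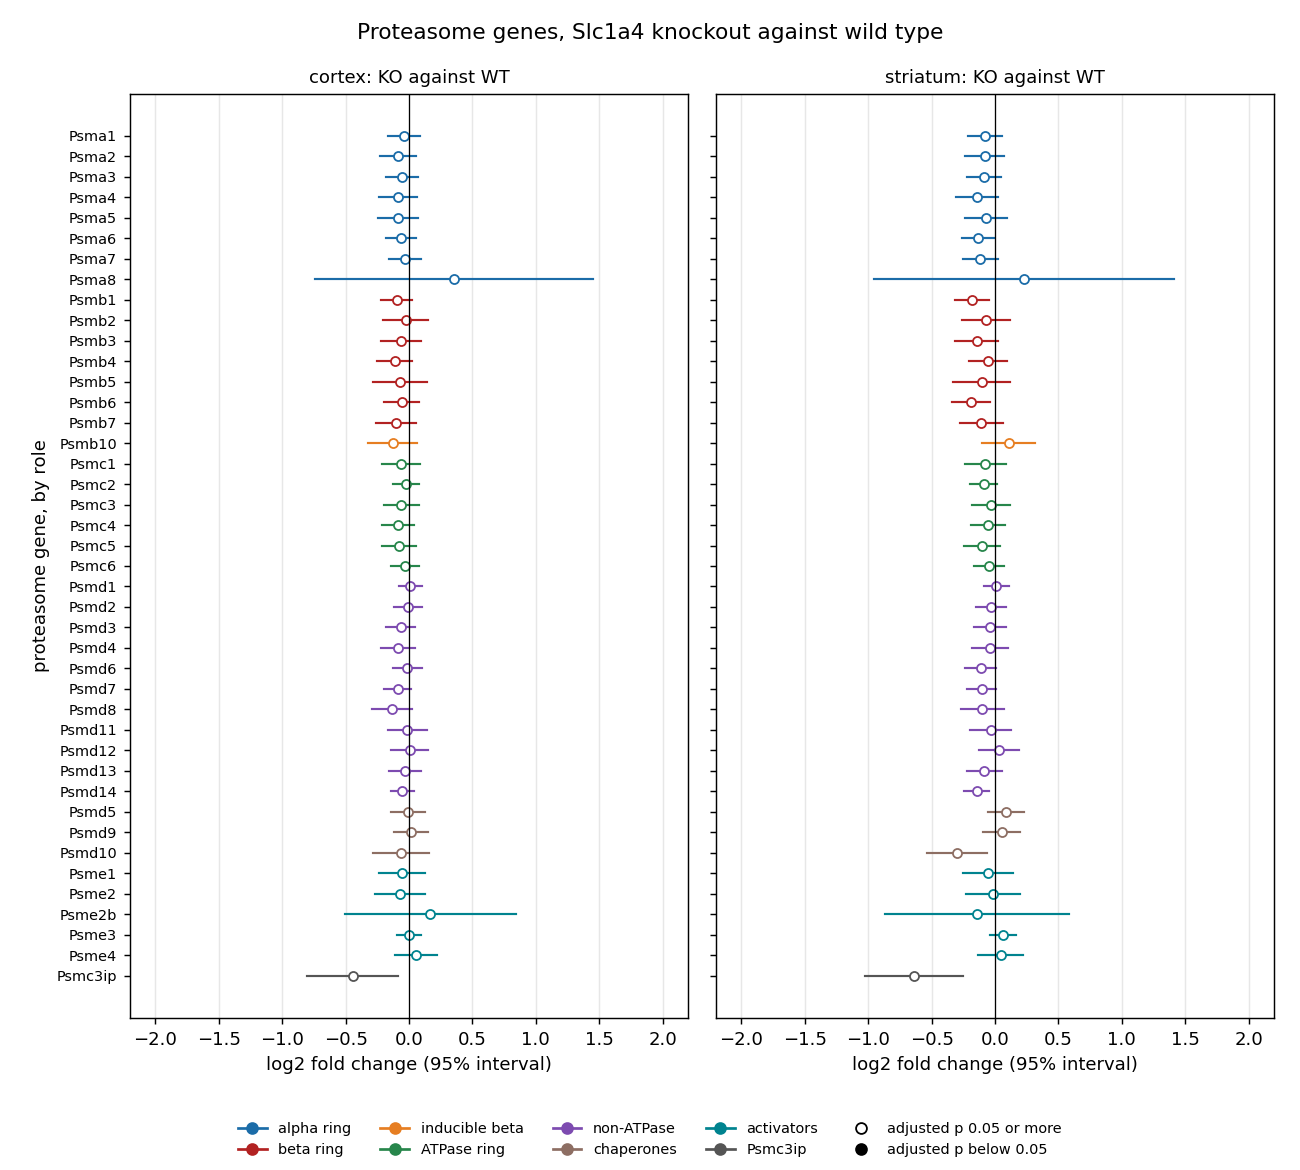
Log2 fold change of KO against WT with its 95% interval for each of the 42 genes, in cortex (left) and striatum (right), coloured by role; open points mark an adjusted p of 0.05 or more, which holds for every gene. Points lie mostly just below 0, with medians of -0.059 in cortex and -0.076 in striatum, and the widest intervals belong to Psma8, Psme2b and Psmc3ip.

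The difference between the KO effects of the tissues was called for 0 of 42 genes, where 0.00587% of all genes were called, and 0 of the 42 had an unadjusted limma p below 0.05 (4.9% of all genes did). With edgeR and DESeq2 the count was also 0. Psmb10 had the smallest p: it stood at 91.3% of the WT mean in KO cortex and 108% in KO striatum, a difference of 0.24 on the log2 scale (SE 0.13, limma adjusted p = 0.96). Psmd10 stood at 95.3% and 81.7% (difference -0.24, SE 0.15), and Psmd14 at 96.4% and 90.6% (difference -0.090, SE 0.06). Differences were below 0 for 28 of 42 genes (50.2% of all genes). Their median was -0.020, and 0.034 without KO striatum replicate 3.

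In striatum much of the lean lay in 1 library. The median deviation of the 42 genes from their mean in the tissue was -0.164 in KO striatum replicate 3, where 36 of 42 genes lay below the tissue mean, and 0.033 and 0.0057 in the other KO striatum libraries. WT striatum libraries had medians of 0.092, 0.0056, -0.019 and 0.065. In cortex the WT libraries had medians of 0.045, 0.026, 0.038 and 0.00084 and the KO libraries -0.063, 0.00059, -0.0040 and -0.036. The lowest WT and the highest KO library nearly touched. With length and GC trends removed the cortex groups overlapped. KO cortex replicate 3 then stood at 0.0129, above WT cortex replicate 6 (0.0125) and replicate 8 (0.0095). KO striatum replicate 3 was also the striatum library lowest in summed oligodendrocyte markers (151230, against 205688 to 308860 in the others), and its beta ring genes had a median deviation of -0.264. With length and GC trends removed its median deviation was -0.160. The part of cell makeup in these values was not tested. The sum of choroid plexus markers ran from 644 to 2126 in WT cortex and from 1519 to 6612 in KO cortex.

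**Figure D5:**
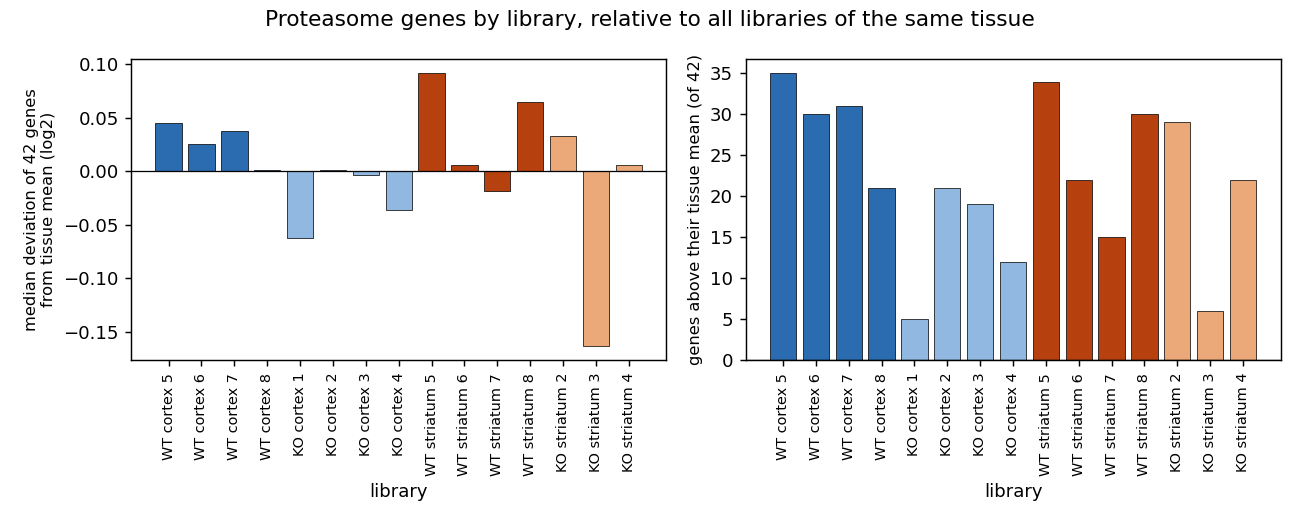
Median log2 deviation of the 42 genes from their mean over all libraries of the same tissue (left) and number of the 42 genes above that mean (right), 1 bar per library, coloured by group. KO striatum replicate 3 (-0.164) lies far below the other libraries, and the cortex libraries run from -0.063 to 0.045.

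None of the pathway lists held a called gene in either comparison of KO with WT or in the difference between them. Nfe2l1 stood at 9583 ± 271 normalized counts in KO cortex and 9529 ± 106 in WT cortex (SD, n = 4 each), and at 8668 ± 331 in KO striatum (n = 3) and 8716 ± 139 in WT striatum (SD, n = 4). Nfe2l2 stood at 414 ± 52 and 447 ± 51 in cortex and at 525 ± 104 and 672 ± 133 in striatum. Its striatal log2 fold change was -0.35 (limma adjusted p = 0.32). Psmb8 stood at 68 ± 13 in KO cortex and 79 ± 11 in KO striatum and Psmb9 at 26 ± 5 and 30 ± 8, and neither was called.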

How the data were processed

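The authors deposited 1 table of normalized counts, a signal value per gene and library, which are read counts divided by 1 factor per library. All values (100%) were whole multiples of a step within 0.001 of a read, so whole reads were recovered for edgeR 4.0.16 and DESeq2 1.42.0. Per the submitters' processing notes, the tools included HTSeq 0.6.0 and TopHat2 2.1.1, with DESeq2 1.12.4 and also FastQC 0.11.5 and cutadapt 1.1. They give the build as GRCm38 and no roles. The strand setting is not given in the sources used here.

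Genes with a normalized count of 10 or more in at least 3 libraries (17030 of 26595) entered a limma fit (version 3.58.1 in R 4.3.3) of log2(normalized count + 1), with a variance trend and 4 group means over 15 libraries, and p-values were adjusted by Benjamini-Hochberg over all genes tested. The test was checked on simulated data. Named genes were, per comparison, up to 8 called by smallest p, or the 3 with the smallest p where fewer than 5 were called, plus the catalytic subunits, the activators, and the highest and lowest gene of each role. The members, lists and tests were chosen with earlier results of these data known. Lists outside the family were assembly factors, receptors and adaptors, ubiquitin genes, regulators, immunoproteasome genes and cell type markers. One gene of the ubiquitin list is not reported here. Alternatives were other pseudocounts, filters, scalings and tests, sample weights, the compared groups alone, trends of length and GC removed, the replicate number as a block, and leaving out libraries. Fits without the pairs of striatum libraries highest in neighbour or choroid plexus markers were added after the data were seen. Positions and exon lengths came from GENCODE M21 (99% of identifiers matched) and promoters from RefSeq. Per-kb ratios were compared with two-sided exact permutation tests. Figures used Python 3.11.15 and matplotlib 3.10.9.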

Additional observations from a re-analysis of the deposited data

Results flagged for a closer look

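In groups of 4 libraries, 63 checks were made, of 20 named genes and of the family's median per library. A single library stood apart from the others for 2 genes, and chance alone flags about 1 in 20 such groups. Psmb6 stood at 1766.3 normalized counts in WT striatum replicate 5, the library highest in choroid plexus markers, and between 1604.1 and 1609.9 in the other WT striatum libraries. Psmd14 stood at 1840 in WT striatum replicate 6 and between 1910 and 1917 in the other WT striatum libraries.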

How the results depend on the processing

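Over 725 alternative values of 24 results for single genes, 690 kept direction and side of the threshold, 35 kept the direction but lost the call and 0 reversed. Many of these could hardly change. Leaving out a library of a group that is not compared cannot alter a fold change. Results that were not called could not lose a call. Counts of called family members stayed at 0 in the KO comparisons and in their difference. Shares of all genes called are not given here for the alternative fits. Leaving out 1 library gave 12 to 15 genes called between tissues in WT and 5 to 11 in KO. The medians then ranged from -0.075 to -0.042 (KO effect in cortex), -0.107 to -0.013 (in striatum), -0.054 to 0.034 (their difference), 0.034 to 0.104 (tissues in WT) and 0.0039 to 0.094 (tissues in KO, lowest without KO striatum replicate 2, and 0.014 without KO striatum replicate 4). With trends in length and GC content removed the tissue medians were -0.012 in WT and -0.038 in KO. With the replicate block added, the medians were -0.012 and -0.050 and the WT count was 8, and Psmd10 and Psmb1 in WT (log2 fold changes 0.25 and 0.15, limma adjusted p = 0.092 and 0.071) and Psmd5 in KO (0.15, limma adjusted p = 0.10) were not called. The cause was not tested. Same-numbered cortex and striatum libraries had correlated deviations from their group means of 0.0037 to 0.142, above 0.1 in 2 of 7 pairs. The main fit did not use the numbers as pairs, because this chosen level of 0.1 was not reached in every pair. Yet 6 of 7 cortex libraries correlated best with the striatum library of their own number. The tissue p-values of the main limma fit may thus ignore a real pairing. With the replicate block alone, 13 genes were called in WT and 5 in KO, in place of 13 and 7, with medians of 0.065 and 0.037. No paired analysis was possible for KO against WT because these groups share no replicate numbers. Psmd3 in KO lost its call in 20 of 31 alternatives and Psmd1 in KO in 8. Without the pair of striatum libraries highest in neighbour markers, or the pair highest in choroid plexus markers, the WT counts were 13 and 14 and the KO count was 7 in both, while the KO tissue median fell to 0.014 in both. Depth limits Psma8 and Psme2b, whose intervals exceeded 1.5-fold in every comparison.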
